A study of Mus musculus with 2 samples.

Results

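Neurons of the spinal cord of mice at postnatal day 4 (P4) were examined in single-cell RNA sequencing data from a severe spinal muscular atrophy (SMA) model and its controls. A cell was counted as a neuron where it held a UMI, that is, a counted RNA molecule, of 3 or more of the 10 neuron markers Stmn2, Snhg11, Syt1, Snap25, Nefl, Gad1, Gad2, Slc32a1, Slc17a6 and Pkd2l1. It could hold UMIs of at most 1 of the 6 glial and vascular markers Pdgfra, C1ql1, Aqp4, Cx3cr1, Cldn5 and Bmp4. This rule took 110 of the 16789 kept cells, 71 of 7163 in the SMA library and 39 of 9626 in the Con library. The SMA mice (mSmn-/-, hSMN22tg/0) lacked intact mouse Smn and the Con mice (mSmn+/-, hSMN22tg/0) kept 1 intact allele. Both groups were of the FVB strain and carried the human SMN2 transgene, so the controls were not wild type. Each library was made from a pool of 3 whole spinal cords of littermates, dissociated with trypsin and collagenase II, and there was 1 library per group. No difference could therefore be set against a spread between replicates, no test between groups was made, and every interval below is a 95% interval that covers counting error only.

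The spinal cord holds excitatory neurons that release glutamate, inhibitory neurons that release GABA or glycine, and the cholinergic motor neurons that are lost in SMA. A small and unusual class lies around the central canal. These cerebrospinal fluid (CSF)-contacting neurons send a short process into the canal, sense the pH and the flow of the fluid through the channel protein Pkd2l1, and use GABA. They are born late from the ventral progenitor zones next to the floor plate, under the transcription factors Gata2, Gata3 and Tal1, and keep traits of immature neurons into adult life.

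The neurons were deeply covered. They held 633063 UMIs in the SMA library and 455823 in the Con library, with a median of 9250 and 10099 UMIs per cell against 6313 and 6620 in the other kept cells. The libraries had 8163 cell barcodes in common. All 39 Con neurons carried a barcode that was also listed in the SMA library, and there the barcode had a median of 17.7% of its Con depth (range 16.3 to 22.1). SMA barcodes also listed in Con were therefore left out, and 0 of the 71 SMA neurons carried a shared barcode. Of the SMA barcodes left out, 35 met the marker rule and 31 of these were the barcodes of Con neurons. Xist, the RNA that silences an X chromosome in females, had 0 UMIs in the SMA neurons and was found in 28 of the 39 Con neurons. Genes of the Y chromosome were found in 43 of 71 SMA neurons and 9 of 39 Con neurons, and the sexes of the pools were not stated. Of the Con neurons 26 had Xist alone, 7 genes of the Y chromosome alone, 2 both and 4 neither. The Con neurons with genes of the Y chromosome alone were not compared apart. In the comparisons below, sex and genotype therefore cannot be told apart.

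The number of markers per cell was concentrated at 3 and at 7 to 8. Of the 71 SMA neurons, 23 had 3 or 4 of the 10 markers and 48 had 5 to 8. Of the 39 Con neurons, 6 had 3 markers and 33 had 6 to 8. A UMI of Pkd2l1 was present in 44 SMA and 31 Con neurons, 75 in all, and was absent from each of the 29 cells with 3 or 4 markers. The 6 remaining cells, 4 SMA and 2 Con, had 5 or more markers without Pkd2l1.

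**Figure D1:**
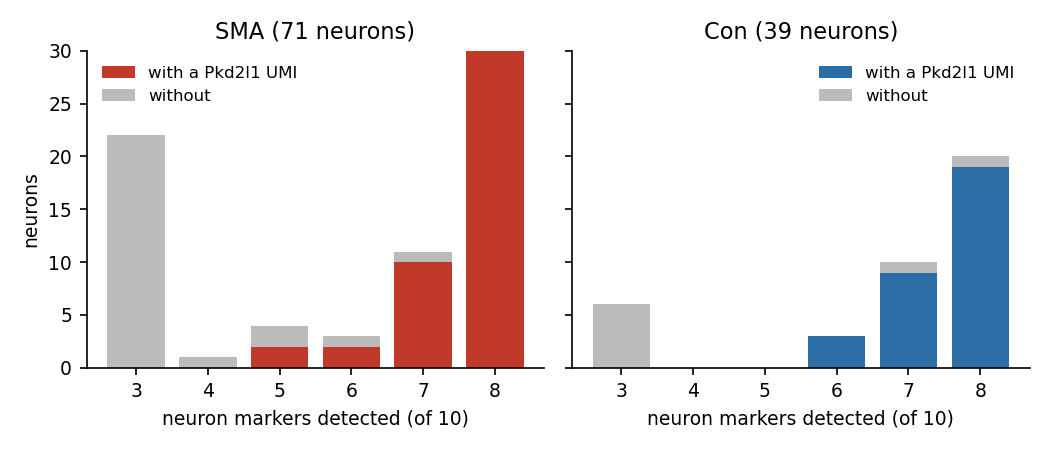
Number of neurons (y axis) by the number of the 10 neuron markers with a UMI (x axis), in the SMA library (left) and the Con library (right), with coloured bars for neurons with a Pkd2l1 UMI and grey bars for those without. The 22 SMA and 6 Con cells at 3 markers are grey throughout, and the bars at 7 and 8 markers are almost wholly coloured.

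The label "neuron" was then checked against 20 pan-neuronal genes that the rule did not use, among them Meg3, Tubb3, Rtn1, Stmn3 and Gap43. These genes took a median of 2.32% of the UMIs of a Pkd2l1 neuron in SMA and 2.35% in Con. In the cells with 3 or 4 markers they took a median of 0.202% in SMA and 0.326% in Con. Marker genes of other cell types took a median of 0.325% and 0.296% of the UMIs of Pkd2l1 neurons, 1.36% and 1.76% in the cells with 3 or 4 markers, and 2.16% and 2.78% in the other kept cells. Lists of markers were set side by side, and the pan-neuronal list, with 20 genes against 8 to 10 in the others, is favoured by its size. It held the most UMIs in 43 of 44 SMA and 27 of 31 Con Pkd2l1 neurons. In the 29 cells with 3 or 4 markers it did so in 3, and the leading list was ependymal in 9, astrocytic in 5, of oligodendrocyte precursors in 5, endothelial in 2, erythroid in 2, of committed precursors or oligodendrocytes in 2 and microglial in 1. For most of these 29 cells the data thus went against the label, and they are called low-marker cells below. Their most frequent markers were Stmn2, in 20 of the 23 SMA and 5 of the 6 Con cells, and Snap25, in 15 and 4.

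**Figure D2:**
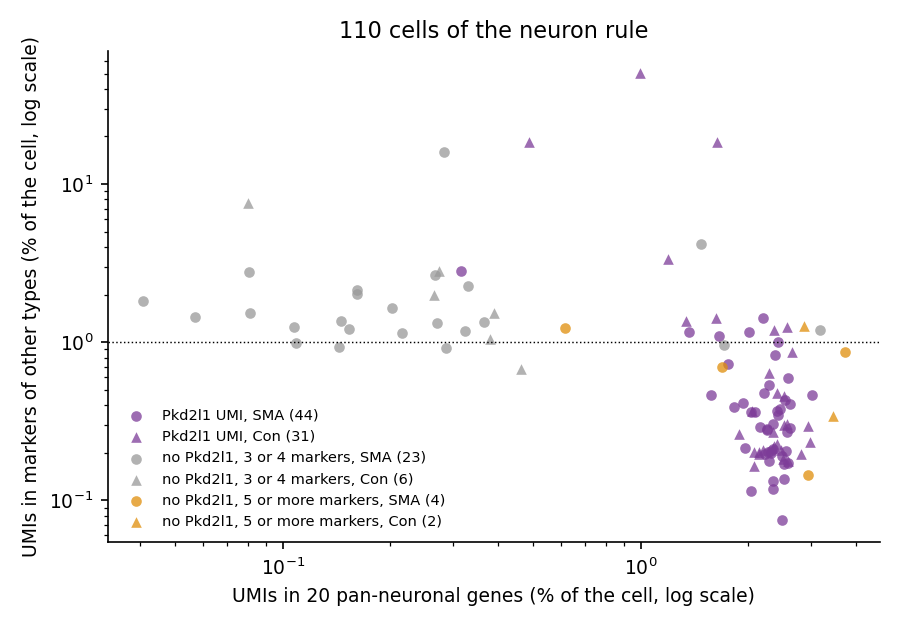
Each point is 1 of the 110 cells, by the share of its UMIs in 20 pan-neuronal genes (x axis, percent, log scale) and in marker genes of other cell types (y axis, percent, log scale), with circles for SMA, triangles for Con and a dotted line at 1%. The cells with a Pkd2l1 UMI gather at about 2% pan-neuronal UMIs, with 6 SMA and 8 Con cells at or above the line, and most low-marker cells lie to their left and around the line or above it.

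Since Pkd2l1 was itself a marker of the rule, the choice was repeated without it. The 9 other markers took the same numbers of cells, 71 and 39, and 75 of the 110 had Pkd2l1 (68.2%, 58.6 to 76.7). The 3 inhibitory markers also favour such cells. With the 5 markers of no transmitter (Stmn2, Snhg11, Syt1, Snap25 and Nefl) 98 cells were taken, of which 74 had Pkd2l1 (75.5%, 65.8 to 83.6), 79 had an inhibitory marker and 2 had Slc17a6. A wider choice, 4 or more of 10 pan-neuronal genes outside the rule, took 420 cells. It held the same number of Pkd2l1 cells, 75, which were a minority there (17.9%, 14.3 to 21.9). Whether the other cells of this choice were neurons was not tested. Just outside the rule lay 170 SMA and 82 Con cells with 2 markers, and 36 and 28 cells with enough markers and 2 or more of the exclusion genes. Outside the rule 15 SMA and 19 Con cells had a Pkd2l1 UMI. The upper limit of 4000 genes in the study's own filter would have removed 8 SMA and 7 Con neurons.

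By transmitter genes the neurons were mostly inhibitory. Gad1 and Gad2, the enzymes that make GABA, Slc32a1, which loads GABA and glycine into vesicles, or the glycine transporter Slc6a5 were found without an excitatory gene in 57 of 71 SMA neurons (80.3%, 69.1 to 88.8) and 34 of 39 Con neurons (87.2%, 72.6 to 95.7). All 44 SMA and all 31 Con Pkd2l1 neurons were in this class, and 36 and 19 of them had UMIs of Gad1, Gad2 and Slc32a1 together. The vesicular glutamate transporters Slc17a6, Slc17a7 and Slc17a8 gave 2 UMIs in all, both of Slc17a6 in SMA cells without Pkd2l1. In the other kept cells an inhibitory gene was found in 3.29% in SMA and 2.62% in Con, the level against which these shares are read. Since Gad1, Gad2, Slc32a1 and Slc17a6 helped choose the cells, these shares are a description. They also depended on the choice of cells, since among the 420 cells of the pan-neuronal choice the inhibitory share was 28.6% in SMA and 20.4% in Con, and with no limit on ribosomal UMIs it was 56.7% in Con.

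The genes of the CSF-contacting list were carried by the same cells. Besides Pkd2l1 the list held Pkd1l2, Gata2, Gata3, Tal1, Tal2, Espn and Myo3b. At least 3 of these 7 were found in 42 of 44 SMA Pkd2l1 neurons (95.5%, 84.5 to 99.4) and in 31 of 31 Con ones. They were found together in 0 of 27 SMA and 0 of 8 Con neurons without Pkd2l1. A count of 0 set to 3 cells would be 11.1% and 37.5%, so few cells stand behind the last value. Among the other kept cells 9 of 7092 and 12 of 9587 had them. The 75 cells are therefore called CSF-contacting neuron-like, or Pkd2l1 neurons.

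The channel Pkd2l1 (chr19:44147637-44192442, minus strand of GRCm38, GENCODE M21, as for all gene positions here) had 370 UMIs in SMA and 298 in Con neurons. Per 10000 UMIs, a Pkd2l1 neuron had a lowest value of 2.26, a median of 8.26 and a highest of 16.2 in SMA, and 2.51, 8.11 and 14.9 in Con. The levels of the 2 libraries overlapped over nearly their whole range. Pkd1l2, a related channel-like protein, was found in 38 of 44 SMA and 27 of 31 Con Pkd2l1 neurons and in 0.0987% and 0.0104% of the other kept cells.

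Espn, which bundles the actin of sensory processes, had a UMI in each of the 44 SMA Pkd2l1 neurons and in 30 of the 31 Con ones. Its level per 10000 UMIs ranged from 0.928 over a median of 3.64 to 8.28 in SMA and from 0 over 4.73 to 12 in Con. Myo3b, a myosin of such actin bundles, was found in 24 SMA and 15 Con Pkd2l1 neurons and in 0.0282% and 0.0104% of the other kept cells. The transcription factor Gata3 was found in 36 and 23 cells, Gata2 in 30 and 27, and Tal1 in 31 and 27. Tal2, a relative of Tal1, was found in 10 and 4 cells. Since the other kept cells were shallower, shares were also taken at 1500 UMIs per cell. Gata2 was then found in 22.7% of SMA and 16.1% of Con Pkd2l1 neurons against 0.228% and 0.278% of the other cells, and Espn in 36.4% and 45.2% against 0.528% and 0.445%. Gata2 and Espn thus stood apart from the other cells at equal depth too, and 81 SMA and 592 Con cells under this depth were left out. Tal1 was found in 1.17% and 1.07% of the other cells at this depth.

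**Figure D3:**
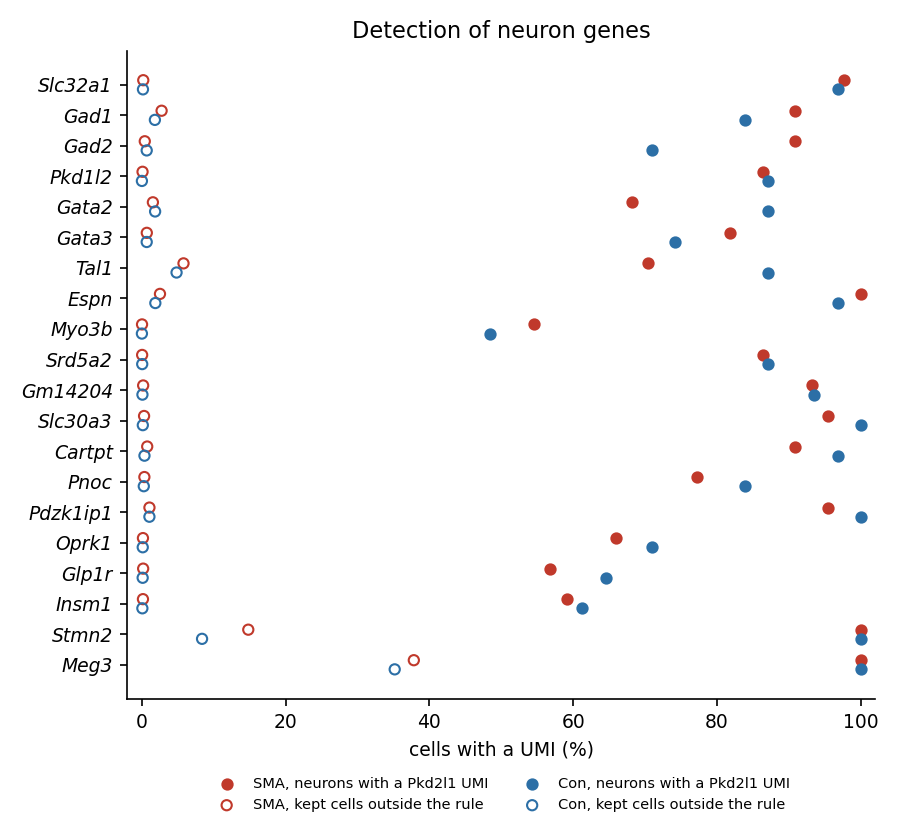
Share of cells with a UMI (x axis, percent) for 20 genes, with filled points for neurons with a Pkd2l1 UMI and open points for kept cells outside the rule, red for SMA and blue for Con. In Pkd2l1 neurons the shares run from 48.4% for Myo3b in Con to 100%, and outside the rule all but Stmn2, Meg3 and Tal1 stay under 3%.

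The 20 genes that stood furthest above the other kept cells, leaving out the genes of the rule, describe the cells further. They were Srd5a2, Myo3b, Gm14204, Pkd1l2, Crhbp, Slc30a3, St6galnac5, Gm5105, Oprk1, Insm1, Cntnap5a, Glp1r, Cartpt, Pdzk1ip1, Klhl1, Srrm4, Gprin3, Pnoc, Vstm2l and Tmem130. Their CPM, that is, their UMIs per 1000000 UMIs, in the 110 neurons was between 141 and 1826 times that of the other cells in the library where the ratio was lower. For comparison, 17.8% of the 3579 genes with 50 or more UMIs stood 2-fold or more above the other cells in both libraries. These genes were chosen by this ratio, so the ratios are a description.

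Srd5a2, a 5-alpha-reductase that makes neuroactive steroids, had the largest ratio in the library where the ratio was lower (1826, in SMA), while in Con its ratio of 2137 was below that of Pkd1l2 (5413), Myo3b (3831) and Cntnap5a (2165). It had 108 UMIs in 39 SMA neurons and 77 in 27 Con neurons, against 0.0934 and 0.0790 CPM in the other cells. Slc30a3, which loads zinc into synaptic vesicles, had 187 and 182 UMIs and was found in 42 of 44 SMA and 31 of 31 Con Pkd2l1 neurons. Insm1, a transcription factor of newborn neurons and neuroendocrine cells, had 43 and 30 UMIs. Srrm4, the splicing factor of neuronal microexons, had 75 and 49. Among receptors, Glp1r, the receptor of glucagon-like peptide 1, had 55 and 31 UMIs, and Oprk1, the kappa opioid receptor, had 64 and 55. Both receptors were found in more than 50% of the Pkd2l1 neurons of each library, Glp1r in 25 and 20 and Oprk1 in 29 and 22.

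The peptide precursors Cartpt and Pnoc were among these genes. Cartpt, which gives the CART peptides, was found in 40 of 44 SMA and 30 of 31 Con Pkd2l1 neurons, with a lowest, median and highest level of 0, 5.91 and 42.4 UMIs per 10000 in SMA and 0, 7.61 and 52.9 in Con. The libraries overlapped. Pnoc, which gives nociceptin, was found in 34 and 26 of them. The opioid precursor Penk was found in 14 and 8, Pdyn, which gives the dynorphins that bind Oprk1, in 9 and 4, and Sst in 6 and 6. Tac2, Cck, Crh, Vip and Trh had no UMI in any of the 110 neurons. Ren1, the renin gene, was found in 22 and 19 Pkd2l1 neurons and in 0.522% and 0.219% of the other kept cells, and Scn9a, a sodium channel, in 19 and 10 against 0.0705% and 0.0313%. Ren1 and Scn9a belong to a further list of genes of CSF-contacting cells, looked at after values had been seen. Of others on it, Kcnmb2 was found in 35 and 25 Pkd2l1 neurons, Asic1 in 22 and 10 and Asic2 in 8 and 13. These stood above the other kept cells in CPM. P2rx2 was found in 1 and 0. Ddc was found in 15 and 10, at 2.01 and 1.03 times the CPM of the other kept cells.

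Markers of other neuron classes gave few UMIs. Of 9 motor neuron genes, Chat, Slc18a3, Mnx1, Isl1, Isl2 and Prph had 0 UMIs in either library, which, set to 3 cells, allows a UMI in up to 4.23% of SMA and 7.69% of Con neurons and does not limit the share that expressed the gene at a lower level. The other 3, Ret, Chodl and Slc5a7, gave 3 UMIs in SMA and 2 in Con. The 9 genes of sensory neurons gave 2 and 0 UMIs, and the 18 genes of ventral interneurons gave 5 and 14, of which 8 in Con were of Onecut2. Of 7 genes of sympathetic neuroblasts 3 had UMIs, 147 in all in SMA and 111 in Con. Hand2, Th and Dbh of this list had no UMI, while Gata3 and Insm1 were those of the CSF-contacting cells. The other gene with UMIs was Mycn. Leaving out cells with a Mycn UMI took the neurons from 71 to 58 in SMA and from 39 to 32 in Con. Of 15 genes of glutamatergic cells, Ebf1 made up nearly all UMIs, with 166 of 180 in SMA and 167 of 182 in Con. Ebf1 was found in 42 of 44 and 31 of 31 Pkd2l1 neurons, which were inhibitory by their transmitter genes.

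The leading genes Gm14204 and Pdzk1ip1 lie beside genes of the rule and of the CSF-contacting list. Gm14204 (chr2:158595472-158610723, minus strand), annotated as a processed transcript, starts 44 bases from Slc32a1 (chr2:158610767-158615748, plus strand) and runs the other way. Both were found in 70 of the 110 neurons, Slc32a1 alone in 9 and Gm14204 alone in 2. Pdzk1ip1 (chr4:115088708-115093899, plus strand), a small membrane protein gene, begins 16953 bases beyond the end of Tal1 (chr4:115056426-115071755, plus strand). Both were found in 58 neurons, with Pdzk1ip1 alone in 15 and Tal1 alone in 1. The libraries count the 3′ ends of RNAs, and the strand setting of the counting is not given in the sources used here.

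Promoters were searched for letters that GATA factors bind, because Gata2 and Gata3 were found in most of the cells that carry the genes. The 3 sequences shown were picked from those with a match. Binding by GATA factors was not tested. The 250 bases before the annotated start were searched on both strands for the letters GATA with A or T before them and A or G after them, which GATA factors are known to bind. Such a match occurred in 26.5% of the 32851 windows of all genes in the RefSeq table of GRCm38.p6. Of 35 genes (the rule, the CSF-contacting list and the 20 leading genes) 25 had a window, and 8 of their 32 windows had a match, a share close to that of all genes. The windows of Gata2, Gata3, Espn, Myo3b and Tal2 had no match, and Pkd2l1 had no entry. The windows of Pkd1l2 (chr8:117082450-117082699, minus strand), Slc32a1 (chr2:158610508-158610757, plus strand) and Tal1 (chr4:115056176-115056425, plus strand) are given 5′ to 3′ in the direction of the gene, with the match in capitals (TTATCT is AGATAA on the opposite strand). The match begins 241, 157 and 205 bases before the start. For Tal1 this is 1 of 2 windows, and the other had no match. The window of Slc32a1 also covers the start of Gm14204.
Pkd1l2: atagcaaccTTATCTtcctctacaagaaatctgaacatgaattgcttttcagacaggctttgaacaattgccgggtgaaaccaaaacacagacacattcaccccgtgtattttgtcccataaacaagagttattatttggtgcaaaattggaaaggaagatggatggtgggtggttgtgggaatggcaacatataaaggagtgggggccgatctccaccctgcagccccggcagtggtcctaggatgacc
Slc32a1: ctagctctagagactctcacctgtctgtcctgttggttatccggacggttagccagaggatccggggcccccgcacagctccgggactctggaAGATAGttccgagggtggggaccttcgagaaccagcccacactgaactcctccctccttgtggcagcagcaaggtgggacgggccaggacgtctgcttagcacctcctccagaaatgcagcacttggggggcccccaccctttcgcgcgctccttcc
Tal1: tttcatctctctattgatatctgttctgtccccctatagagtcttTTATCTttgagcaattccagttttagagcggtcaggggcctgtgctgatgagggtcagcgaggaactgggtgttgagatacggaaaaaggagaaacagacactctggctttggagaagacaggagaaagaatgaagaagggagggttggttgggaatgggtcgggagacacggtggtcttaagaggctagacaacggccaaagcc

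The position of the cells along the body was read from Hox genes, a list looked at after values had been seen. In Pkd2l1 neurons Hoxa10 was found in 35 of 44 SMA and 27 of 31 Con cells and Hoxc10 in 36 and 25, genes that mark lumbar levels. Hoxa9 was found in 31 and 23, Hoxa7 in 32 and 26, and Hoxa5, of more anterior levels, in 15 and 9. Hoxd10 was found in 12 and 14 cells against 2.86% and 3.12% of the other kept cells, and Hoxa11 in 5 and 5. The CPM of Hoxa10 was 7.32 times that of the other kept cells in SMA and 7.89 times in Con. The level of Hox genes differs between cell types, so these counts do not place the cells.

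Genes known from progenitors were found in the Pkd2l1 neurons, and were looked at after values had been seen. Nkx6-1, of ventral progenitors, was found in 33 SMA and 27 Con cells against 11.8% and 8.23% of the other kept cells. Sox1 was found in 23 and 20 against 3.67% and 2.63%, and Lmo1 in 35 and 29 against 17.7% and 15.9%. Sox2, found in 33 and 24, was also frequent in the other cells, at 43.4% and 35.5%. Vim, found in 35 and 29, stood at 0.493 and 0.355 times the CPM of the other kept cells. Among genes of immature neurons, Sox11 was found in 41 and 30 Pkd2l1 neurons and Dcx in 27 and 21. Rbfox3, the gene of the mature neuron protein NeuN, was found in 17 and 13. Their shares in the other kept cells are not given here, so no state of maturity is read from these counts. Neurofilament genes were low, with 17 and 8 UMIs of Nefl, 7 and 6 of Nefm and 0 of Nefh in the 110 neurons, and none of Nefl in the 61 cleanest Pkd2l1 neurons defined below.

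Within the Pkd2l1 neurons a subset carried Dcn, the matrix proteoglycan decorin that is best known from fibroblasts. It was found in 18 of 44 SMA cells (40.9%, 26.3 to 56.8) and 6 of 31 Con cells (19.4%, 7.45 to 37.5), against 2.17% and 7.60% of the other kept cells. Each of the 24 cells had 3 or more Dcn UMIs and the highest had 115, and 51 cells had none at a similar median depth, 10556 UMIs against 10425.5. The intervals of the 2 libraries overlapped. The subset was noticed in these data, and what follows is a description of it.

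Cells with Dcn carried other genes more often. Foxa2, a transcription factor of the floor plate, was found in 10 of the 24 cells with Dcn and 2 of the 51 without. Cpne4, a calcium-binding copine, was found in 11 against 0, Pdyn in 12 against 1 and Ppfia2, a scaffold of the presynaptic zone, in 14 against 5. Penk was found in 13 against 9. In the other direction Prdm8, a transcription factor of spinal progenitors and interneurons, was found in 0 against 19. Pnoc and Nkx6-1 were at similar shares, with 18 against 42 and 21 against 39 cells. Cartpt was found in 22 against 48 cells, but its level was lower with Dcn in both libraries, at 657 against 1156 CPM in SMA and 660 against 1293 in Con. Sst went opposite ways, with 4 of 18 against 2 of 26 cells in SMA and 0 of 6 against 6 of 25 in Con. Foxa2, Cpne4, Pdyn, Ppfia2 and Prdm8 had the same direction in both libraries, whereas Nkx2-2 was found in 6 of 18 SMA cells with Dcn and 0 of 6 Con ones.

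**Figure D4:**
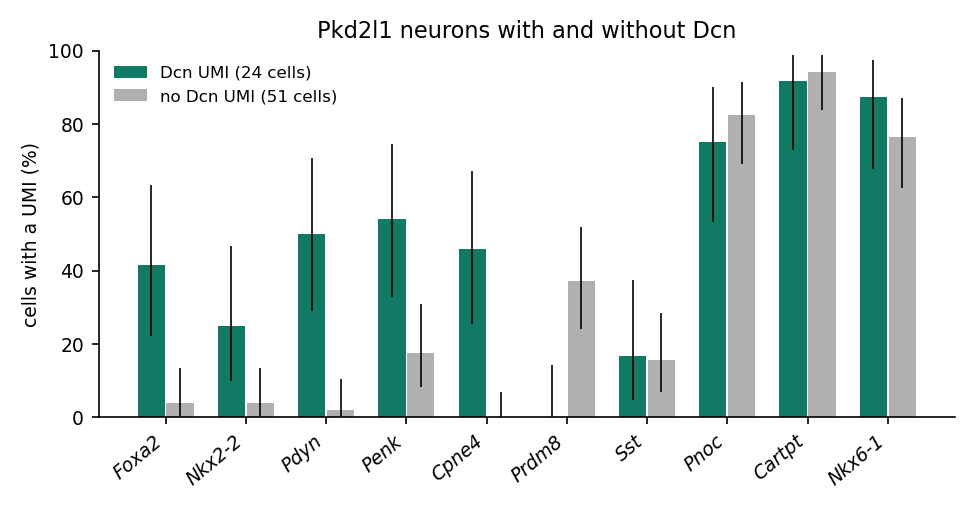
Share of cells with a UMI (y axis, percent) of 10 genes in the 24 Pkd2l1 neurons with a Dcn UMI (green bars) and the 51 without (grey bars), both libraries together, with exact 95% counting intervals as lines. Foxa2, Cpne4 and Pdyn stand higher in the cells with Dcn, Prdm8 is found in the cells without it, and Pnoc, Cartpt and, with the libraries together, Sst are at similar shares.

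Neurons made up 0.991% of the kept SMA cells (0.775 to 1.25) and 0.405% of the kept Con cells (0.288 to 0.553), a log2 ratio of SMA over Con of 1.29 (0.71 to 1.89). For Pkd2l1 neurons the shares were 0.614% and 0.322%, a log2 ratio of 0.93 (0.24 to 1.64). For the low-marker cells they were 0.321% and 0.0623%, a log2 ratio of 2.36 (1.03 to 3.95), the largest ratio of the classes, in the cells where the neuron label was doubtful. With the shared SMA barcodes kept, 106 neurons and a log2 ratio of 0.94 were obtained. The limit on ribosomal UMIs removed 21 Con and 0 SMA barcodes that met the marker rule, none with Pkd2l1, and without it the log2 ratio was 0.85. The shares depend on how cells survived dissociation and on the filters, and their part in the difference was not tested. Fewer or more neurons in the cord cannot be told apart from a different yield of the other cell types, which make up the denominator.

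Gene by gene, the summed counts of the 71 SMA neurons and the 39 Con neurons were within 2-fold for most neuron genes. Of the 3579 genes with 50 or more UMIs, 2.24% were 2-fold or more higher in SMA and 2.1% were 2-fold or more lower, and the median log2 ratio over them was 0.04. Of 17 pan-neuronal genes tested, 0 were past 2-fold and their median was -0.02. The same held for 8 genes of the rule itself (median -0.03), 7 of the CSF-contacting list (-0.16), 4 of GABA and glycine transmission (0.02), 9 of synaptic release (-0.14), 16 of axon and cytoskeleton (-0.21), 9 of immature neurons (-0.16) and the 20 leading genes (-0.15), each with 0 genes past 2-fold. The cells of both libraries were chosen by UMIs of the rule's genes, some of which also stand in the lists of CSF-contacting cells, of GABA and glycine transmission, of synaptic release and of axon and cytoskeleton. The leading genes were chosen for a high ratio in both libraries. The closeness of these lists is therefore partly set by the choice and is a description. No other setting was run for the genes of the rule. The other medians changed sign under some other choices of cells or scaling, between -0.46 and 0.38 in all, so no direction is drawn from them. Of 3 neuropeptide genes tested 0 were past 2-fold, with a median of -0.53. Of 3 genes of GABA and glycine reception and chloride balance 1 was, the chloride importer Slc12a2, at -1.08 (-1.95 to -0.24) from 21 and 32 UMIs and at -0.018 with each cell weighted equally. Meg3, a long noncoding RNA of neurons, stood at -0.05 (-0.13 to 0.03), Rtn1 at -0.02 (-0.09 to 0.05) and Stmn2, a microtubule regulator of growing axons, at -0.04 (-0.16 to 0.09).

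Many of the genes with the largest ratios were genes of other cell types. Higher in SMA were Atf3 (77 UMIs against 0), Ramp2 (2.13), Ier3 (2.13), Mlf1 (2.11), 1700094D03Rik (2.07), Id3 (2.0), 1700007K13Rik (1.98), C1qc (1.96), Cyba (1.94) and Arpp21 (1.82), each given with its log2 ratio. Atf3, a stress-response transcription factor, had a log2 ratio of 4.21 with the Con count of 0 set to 3 and a lower counting limit of 3.88, but 2 SMA cells held 76.6% of its UMIs. For Ier3, an immediate early gene, 1 SMA cell held 71 of 103 UMIs, and its log2 ratio was 0.92 with each cell weighted equally and -0.088 with at most 4000 genes per cell. The direction of 1700007K13Rik turned in Pkd2l1 neurons alone (-0.37), with 4 or more markers (-0.37), with under 5% mitochondrial UMIs (-0.089) and in the Pkd2l1 neurons with under 1% of UMIs in markers of other types (-0.44, from fewer than 50 UMIs). That of Cyba turned with under 5% mitochondrial UMIs (-0.28) and with cells chosen by other pan-neuronal genes (-0.30). C1qc is a complement gene of microglia, and 77.4% of its SMA UMIs lay in 3 cells. Of these 10 genes, Atf3, Ramp2, Ier3, Id3, C1qc and Cyba had a higher CPM in the other kept cells of both libraries than in the SMA neurons. Among the other kept cells, 7 of the 10, all but Ramp2, Ier3 and Id3, also had the higher CPM in SMA. These ran from 228 against 204 CPM for Cyba to 77.9 against 28.2 for 1700007K13Rik. Of 5 microglial marker genes tested, 4 were past 2-fold higher in SMA, and of 2 endothelial ones both were. For 1 of these, Cldn5, 2 SMA cells held 96.2% of the UMIs, and 0 lay in SMA Pkd2l1 neurons.

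Lower in SMA were Xist (0 against 361 UMIs), Mag (-6.04), Cldn11 (-5.67), Elovl7 (-5.60), Mog (-5.54), Sema4d (-5.17), Ugt8a (-4.64), Hbb-bt (-4.53) and Mobp (-4.23). Each of these 9 genes also had the lower CPM in SMA among the other kept cells, but the sizes were unlike. There Mog had 243 against 245 CPM, Elovl7 141 against 152 and Mag 1040 against 1183, far closer than in the neurons. The difference was larger for Hbb-bt, at 6429 against 12753, and Xist, at 1.66 against 508. Mag, Mog, Ugt8a and Mobp are genes of myelin and the oligodendrocytes that form it, and Hbb-bt is a globin of red blood cells. The direction turned with no exclusion gene for Cldn11 (1.35) and Mobp (0.81), and in the Pkd2l1 neurons with under 1% of UMIs in markers of other types for Mobp (1.03) and Hbb-bt (0.29), each from fewer than 50 UMIs there. Mag had 520 UMIs in Con neurons, of which 3 of the 39 cells held 98.1%. Hbb-bs, another globin gene, had 10207, of which 3 cells held 98.3%. All 6 marker genes of committed precursors and oligodendrocytes that were tested and 4 of 5 erythroid ones were past 2-fold lower in SMA. Of 7 astrocyte genes 0 were past 2-fold, as were 0 of 3 genes of oligodendrocyte precursors. Of 6 ependymal genes 1 was, Tmem212, at 1.56 (0.89 to 2.28). Of 2 genes of dividing cells 1 was, Ube2c, at -1.80 (-2.73 to -0.93), with 32 of its 40 Con UMIs in 1 cell. The 1 gene of mural cells and fibroblasts with enough UMIs, Dcn, stood at 1.54 (1.24 to 1.85). Among Con Pkd2l1 neurons, markers of other types reached 50.3% of the UMIs of a cell.

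The comparison was therefore repeated in the 38 SMA and 23 Con Pkd2l1 neurons with under 1% of their UMIs in markers of other types, a limit chosen after values had been seen. In them 2197 genes had 50 or more UMIs, of which 0.819% were 2-fold or more higher and 0.364% 2-fold or more lower in SMA, against a median log2 ratio of 0.01. The limit counts the marker lists themselves, so their values in these cells were partly set by it and are a description. The microglial, endothelial and Schwann lists had no gene left with enough UMIs, and the oligodendrocyte list kept 2, Mbp at -1.33 (-1.93 to -0.74) and Cnp at -1.93 (-2.91 to -1.02). Both are expressed far more strongly in other kept cells, at 3050.5 and 4565.3 CPM for Mbp against 110 and 276 CPM in these neurons.

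Most neuron genes stayed within 2-fold in these cells too. The medians were 0.01 for pan-neuronal genes, -0.17 for the CSF-contacting list, 0.23 for GABA and glycine transmission, -0.08 for synaptic release, -0.10 for axon and cytoskeleton, 0.10 for immature neurons and -0.21 for the leading genes. Cd24a, a surface protein of developing neurons, was the single gene of these lists past 2-fold, with 50 UMIs in SMA against 69 in Con and a log2 ratio of -1.17 (-1.73 to -0.62). In single Pkd2l1 neurons Cd24a ran from 0 over a median of 0.920 to 4.69 UMIs per 10000 in SMA and from 0 over 2.08 to 9.36 in Con, so the cells of the 2 libraries overlapped.

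Smaller differences had intervals on 1 side of 0, as was common. Of the genes tested in the cleaner neurons 6.19% had an interval above 0 and 5.78% below 0, and in all 110 neurons 11.4% and 8.72%. In the cleaner neurons 3 of 9 immature neuron genes lay above 0 and 2 below. For 16 axon and cytoskeleton genes and for 17 pan-neuronal genes this was 1 and 4. For 7 CSF-contacting genes it was 0 and 1, and for synaptic release and for GABA and glycine transmission 0 and 0. Intervals are narrower for genes with more UMIs, and the lists were not matched for this. Cartpt had 361 UMIs against 377, a log2 ratio of -0.77 (-0.98 to -0.56), and Gata2 stood at -0.76 (-1.32 to -0.19). The tubulin gene Tubb2b was at -0.52 (-0.69 to -0.35) and Gap43, of growth cones, at -0.33 (-0.55 to -0.10). On the other side were Tmsb10, which binds actin monomers, at 0.50 (0.36 to 0.63), and Stmn1, which destabilises microtubules, at 0.48 (0.29 to 0.67). Over all 75 Pkd2l1 neurons the values shifted, for a cause that was not tested. Tmsb10 stood at 0.73 (0.62 to 0.85) and Stmn1 at 0.68 (0.51 to 0.84), Cartpt at -0.26 (-0.45 to -0.06) and Gata2 at -0.18 (-0.67 to 0.32), so the last held 0. In single cells Tmsb10 ranged from 13.3 over a median of 36.5 to 69.1 UMIs per 10000 in SMA and from 6.63 over 25.7 to 47.3 in Con. Without a replicate, an interval off 0 shows that the 2 pools of cells differed in counts and does not reach to the genotypes.

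**Figure D5:**
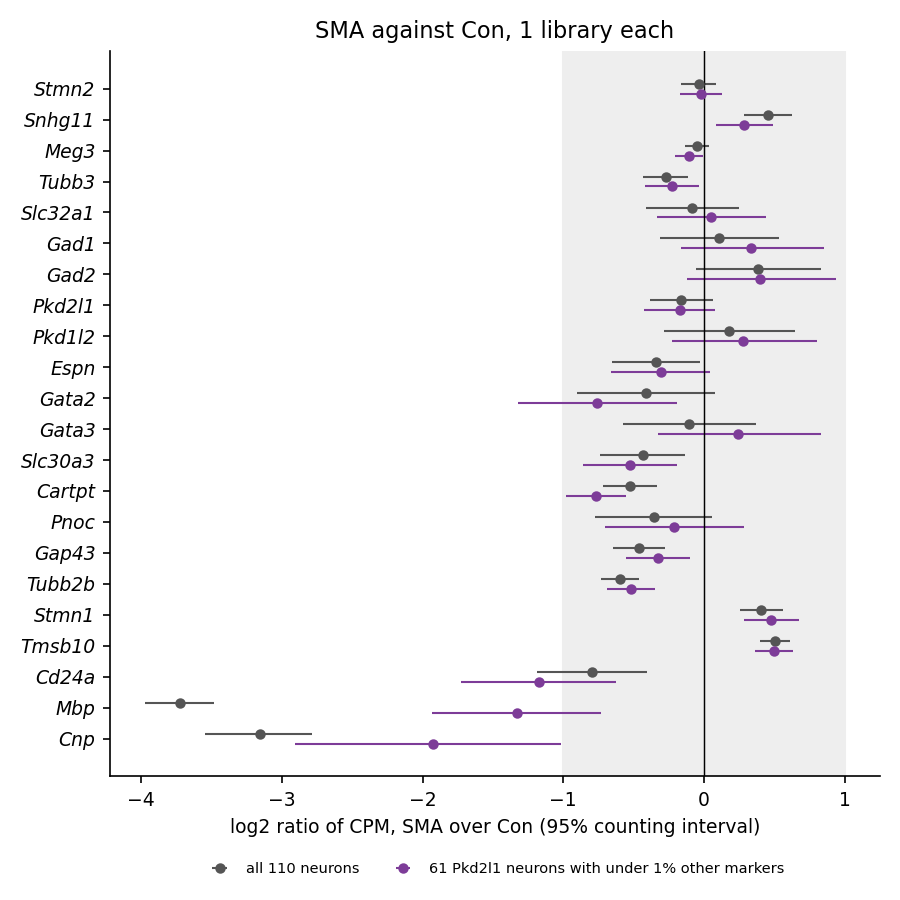
Log2 ratio of CPM, SMA over Con (x axis), of 22 genes with exact 95% counting intervals as lines, in grey for all 110 neurons and in purple for the 61 Pkd2l1 neurons with under 1% of UMIs in markers of other types, with the range within 2-fold shaded. Neuron genes other than Cd24a lie in the shaded range, and Mbp and Cnp lie far to its left in all neurons and nearer to it in the 61.

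By the rule for naming genes, the 10 highest ratios in these cleaner cells were of Dcn (1.84, 251 UMIs against 43), Ssbp1 (1.36), Mt1 (1.33), Brd3 (1.33), Smap2 (1.27), Gm5914 (1.26), mt-Nd4l (1.24), Safb (1.20), Elmod1 (1.19) and Slirp (1.16). Dcn was carried by 16 of the 38 SMA and 3 of the 23 Con cells. It is itself among the marker genes that the limit of 1% counts, so its ratio here was partly set by the choice of cells. Over all 75 Pkd2l1 neurons, chosen without it, Dcn had 460 UMIs against 114, a log2 ratio of 1.82 (1.52 to 2.13). For 9 of these 10 genes, all but Dcn, the other kept cells also had the higher CPM in SMA, from 48.2 against 47.7 CPM for Brd3 to 298 against 115 for mt-Nd4l, with 1724 against 946 for Mt1 and 46.6 against 25.6 for Gm5914. The lowest were of Xist (0 against 166 UMIs), Cnp, Slc25a39 (-1.54), Mbp, Mettl22 (-1.22), Cd24a, Ppp2r2a (-1.12), Ren1 (-1.08), Vcp (-1.0) and Clip3 (-1.0). The other kept cells had the lower CPM in SMA for 7 of these 10, all but Mettl22, Cd24a and Ren1. These ran from 93.7 against 105 CPM for Ppp2r2a to 1.66 against 508 for Xist. Apart from Xist and Dcn, each of these genes had between 50 and 187 UMIs over both libraries, and their intervals were wide.

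Genes tied to SMA itself were low in counts. Smn1 had 28 UMIs in SMA and 21 in Con neurons, under the minimum of 50, so it was not compared. Counts over the whole gene do not resolve the part that is disrupted, so this does not check the labels. Of 19 genes of the SMN complex and of known modifiers of SMA, 5 had enough UMIs, 0 were past 2-fold and the median was -0.25. Gemin7, a subunit of the SMN complex, stood at -0.36 (-0.96 to 0.25), Uba1 at -0.25 (-0.88 to 0.39) and Ncald, a calcium sensor and modifier, at -0.11 (-0.70 to 0.47). Of 16 p53 targets 3 had enough UMIs, with Cdkn1a at 0.38 (-0.09 to 0.87), Bax at -0.04 (-0.38 to 0.30) and Phlda3 at -0.54 (-0.93 to -0.15).

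Of 26 genes of signalling pairs that the study had examined, 14 had enough UMIs, and 1, the growth factor Mdk, was past 2-fold (1.5, 0.67 to 2.43). In the cleaner Pkd2l1 neurons Mdk had 13 and 6 UMIs. Ptn, its relative, had 920 and 455 UMIs in all neurons, and 39 and 27 in the cleaner ones. The adhesion genes Ncam1, at 0.07 (-0.16 to 0.30), Cadm1, at 0.01 (-0.45 to 0.49), and Nrxn2, at -0.19 (-0.64 to 0.27), had intervals that held 0. Since the study chose these genes on these libraries, they give no independent evidence of a direction.

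Clustering of the 110 neurons gave 5 clusters that followed the divisions above in part. Of the 75 Pkd2l1 neurons, 52 lay in 2 clusters of their own and 23 in 2 mixed ones. A cluster of 38 cells (22 SMA and 16 Con), all with Pkd2l1, was led by Tslp, Cda and Dbndd1, and 1 of 14 cells (9 and 5), all with Pkd2l1, by Gata3, Dcn and Hoxd10. A cluster of 28 (17 and 11) held 11 Pkd2l1 neurons and 17 low-marker cells and was led by Mag and Tmem212. A cluster of 21 (17 and 4) held 12 Pkd2l1 neurons, 3 low-marker cells and the 6 others and was led by the microglial genes C1qb, C1qc and P2ry12. A cluster of 9 (6 and 3) was made up of low-marker cells and led by Lhfpl3. Both libraries were present in every cluster, and the clusters were not given cell type names of their own.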

How the data were processed

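Whole spinal cords were measured by 10x Genomics 3′ v3 single-cell RNA sequencing in 1 library per group. The authors deposited unnormalised UMI counts per gene and barcode, with mm10 as the build in the submitters' processing notes. The header of the matrices names Cell Ranger 4.0.0. Barcodes with 200 or more genes, under 10% mitochondrial and under 25% ribosomal-protein UMIs were kept, with no upper limit on genes and no doublet caller. Summed counts were divided by total UMIs (CPM). Ratios of SMA over Con carry exact conditional binomial 95% intervals and shares carry Clopper-Pearson ones. A count of 0 was set to 3. Genes with 50 or more UMIs in both libraries together were compared, and "2-fold" is the ratio used for counts of genes.

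Genes named are those of the rule, the 10 highest and 10 lowest ratios (a UMI in 10% or more of the cells of a library, same direction with each cell weighted equally), the 20 furthest above other kept cells, and members of each list with most counts or the largest ratio. A few of these genes are not reported here. Cells, lists and members were chosen with earlier results of these data known. The ratio was tested on simulated counts. Python 3.11.15, scipy 1.17.1 and scanpy 1.11.5 (1000 variable genes, 15 components, 10 neighbours, Leiden resolution 0.8) were used, with gene positions from GENCODE M21 and promoters from RefSeq.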

Additional observations from a re-analysis of the deposited data

Results flagged for a closer look

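The limit on mitochondrial UMIs removed cells with neuron markers unequally. Among barcodes with 10% or more mitochondrial UMIs, which entered a comparison only where the limit was set to 25%, 26 in the SMA library met the marker rule and 11 of these had a Pkd2l1 UMI, against 4 and 0 in the Con library. The limit on ribosomal UMIs went the other way, since 0 SMA and 21 Con barcodes above it met the marker rule, none of them with Pkd2l1. The 26 and 11 SMA barcodes are more than the 4 and 0 of the control library. For scale, the limit of 25% kept 15364 SMA and 21026 Con barcodes, against 7163 and 9626 with the limit of 10%. The barcodes without Pkd2l1 were not checked further for the neuron label. No test was possible with 1 library per group.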

How the results depend on the processing

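The excess of cells counted as neurons in the SMA library kept its direction under each alternative run. The main value included the low-marker cells, for most of which the data went against the label, and Pkd2l1 neurons alone left them out. The log2 ratio was 1.37 with at most 4000 genes, 1.00 with 4 or more markers, 1.32 with no exclusion gene and 1.20 with under 15% ribosomal UMIs. With shared barcodes kept the log2 ratio was 0.94, with the pan-neuronal choice 0.76, for Pkd2l1 neurons alone 0.93, with no ribosomal limit 0.85 and with under 25% mitochondrial UMIs 1.65. It moved to 2.47 with under 5% mitochondrial UMIs, from 23 of 1552 and 7 of 2619 cells. The settings with Pkd2l1 neurons alone, no ribosomal limit, under 25% mitochondrial UMIs and under 1% other markers (the cleaner neurons), and the Hox, Dcn and further CSF-contacting lists, were chosen after seeing the data. The inhibitory share in SMA was 95.9% with 4 or more markers, 90.2% with no exclusion gene, 91.3% with under 5% mitochondrial UMIs and 28.6% with the pan-neuronal choice, and in Con it was 100% under the first 3 of these and 20.4% under the last, and 56.7% with no ribosomal limit, while it was 100% in both libraries for Pkd2l1 neurons. Thinned to 1500 UMIs, Pkd2l1 was found in 40.8% of SMA and 51.3% of Con neurons, Slc32a1 in 31.0% and 33.3%, Cartpt in 38.0% and 53.8%, and Stmn2 in 77.5% of SMA neurons.

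The percentage of genes 2-fold or more lower in SMA was 1.11 with at most 4000 genes, 0.761 with no exclusion gene, 1.00 with under 5% mitochondrial UMIs, 0.772 with the pan-neuronal choice, 0.922 without the 2 deepest cells of each library, 0.364 in the 61 cleaner neurons and 4.32 with a minimum of 20 UMIs. The percentage higher was 6.61 with under 5% mitochondrial UMIs, 0.936 with the pan-neuronal choice, 0.819 in the cleaner neurons, 5.44 with a minimum of 20 UMIs and 1.24 with 100. The median of the GABA and glycine list was -0.46 and that of the immature neuron list 0.27 with under 5% mitochondrial UMIs, and the latter was 0.24 for Pkd2l1 neurons alone. Over 16 settings the medians ran from -0.21 to 0.21 for pan-neuronal genes, -0.43 to 0.13 for the CSF-contacting list, -0.39 to 0.08 for synaptic release, -0.34 to 0.08 for axon and cytoskeleton and -0.40 to 0.17 for the leading genes. Of 960 log2 ratios of 70 genes, 126 had the other sign, 111 of them for genes whose counting interval held 0, so no direction is drawn from these. The other 15 were of genes with an interval off 0. Their sign changed for Ier3 (-0.088) and Pdzk1ip1 (-0.032) with at most 4000 genes, for 1700007K13Rik with 4 or more markers (-0.37), under 5% mitochondrial UMIs (-0.089), in Pkd2l1 neurons (-0.37) and in the cleaner ones (-0.44), for Cyba with under 5% mitochondrial UMIs (-0.28) and the pan-neuronal choice (-0.30), and for Cldn11 (1.35) and Mobp (0.81) with no exclusion gene. It also changed for Mobp (1.03) and Hbb-bt (0.29) in the cleaner neurons, Klhl1 (0.76) with under 5% mitochondrial UMIs, and Tubb3 with the pan-neuronal choice (0.0022) and in Pkd2l1 neurons (0.054). The cause was not tested.

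No paired analysis was possible because each group had 1 library, and no replicate was there to leave out. With 39 to 71 neurons, genes under 50 UMIs were not compared, and a count of 0 cells, set to 3, allows a UMI in up to 4.23% of SMA and 7.69% of Con neurons.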
